A study of Mus musculus with 20 samples.

Results

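The genes described here are 9 genes of the Notch pathway, out of 18193 genes on the array. They are the ligands Dll1, Dll3 and Jag1, the receptors Notch1 and Notch3, the transcriptional targets Hes1 and Hey1, the feedback inhibitor Nrarp and the receptor-modifying enzyme Lfng. They were found by gene symbol in the platform annotation, which gave 15 of 45101 probe sets. RNA was measured on 20 Affymetrix arrays from 5 mouse embryonic stem cell lines at 2 stages, with 2 arrays in each of the 10 groups. All lines were male, of strain C57BL/6;129, and carried the Blimp1-mVenus and stella-ECFP reporters and the reverse tetracycline transactivator at Rosa26. The parental line BVSCR26rtTA had no further transgene. The 3-factor line (BP14A, clone #3-3) also carried doxycycline-inducible transgenes for Avi-tagged Blimp1, 3xFLAG-tagged Prdm14 and V5-tagged Tfap2c. The other lines carried 1 of these each, namely the Blimp1 line (B, clone #2-4), the Prdm14 line (P14, clone #7-109) and the Tfap2c line (A, clone #8-2). The transgenes were driven by tetOx8-mCMV promoters, linked to IRES-beta geo and brought in on piggyBac vectors. EpiLCs, epiblast-like cells made from stem cells that had been kept without feeders in 2i and LIF, were taken at 36 h. Day 1 samples were whole aggregates, seeded at 2000 cells per well, after 24 h in GK15 medium with doxycycline at 1.5 µg/ml in every line. Each line is 1 clone, so effects of a factor and of its clone cannot be told apart. Every aggregate analysed here had doxycycline. The study asked which genes each factor alters on the way to cells resembling primordial germ cells.

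In Notch signalling, a ligand on one cell binds a receptor on its neighbour, proteases then release the receptor's intracellular part, and this part joins the DNA-binding protein RBPJ in the nucleus to switch on targets such as Hes and Hey repressors. Dll1 and Jag1 activate receptors on neighbouring cells, whereas Dll3 is known mainly as an inhibitor within the cell that makes it. Nrarp is itself a target and destabilises the released receptor, and Lfng adds sugars to the receptors that change which ligands they answer to. In the mouse embryo, Dll1, Dll3, Lfng and Hes genes are known for the clock that segments the presomitic mesoderm, and the pathway also keeps neural progenitors from differentiating.

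The promoters of Dll1, Jag1 and Notch1 are shown first because these are the members that changed most between single-factor lines on day 1. Each sequence is the 250 bases upstream of a transcript start, 5′ to 3′ on the gene's strand, from RefSeq on build GRCm38.p6. Both strands were searched for TGGGAA (the core bound by RBPJ), GCCNNNGGC (AP-2 factors, to which Tfap2c belongs), AGNGAAAG (PRDM1, the protein also called Blimp1) and GGTCTC (PRDM14). The capitals in Dll1 mark its only match, an AGNGAAAG read on the opposite strand at positions -180 to -173 from the start. Dll1, chr17:15376933-15377182, minus strand, with a GC content of 56.0%, is the outer of its 2 listed starts.
Dll1: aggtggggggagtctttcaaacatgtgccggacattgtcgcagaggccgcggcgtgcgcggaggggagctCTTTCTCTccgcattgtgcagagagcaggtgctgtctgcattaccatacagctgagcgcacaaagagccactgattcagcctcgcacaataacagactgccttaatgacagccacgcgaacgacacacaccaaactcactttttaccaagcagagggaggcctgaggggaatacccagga
Jag1 lies at chr2:137116521-137116770, minus strand, with a GC content of 57.2%, and held none of the motifs.
Jag1: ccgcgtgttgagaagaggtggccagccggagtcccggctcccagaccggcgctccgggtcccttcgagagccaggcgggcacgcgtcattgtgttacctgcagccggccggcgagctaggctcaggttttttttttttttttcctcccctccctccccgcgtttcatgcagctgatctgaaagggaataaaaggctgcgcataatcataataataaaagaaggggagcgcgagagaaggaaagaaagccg
Notch1 lies at chr2:26503823-26504072, minus strand, with a GC content of 66.0%, and held none of them either.
Notch1: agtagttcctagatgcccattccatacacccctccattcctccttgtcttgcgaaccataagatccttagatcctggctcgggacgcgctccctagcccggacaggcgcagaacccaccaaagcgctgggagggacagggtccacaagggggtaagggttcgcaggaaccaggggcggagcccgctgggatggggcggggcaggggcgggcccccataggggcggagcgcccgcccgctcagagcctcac
The reference held promoters for 7 of the 9 genes, 8 sequences in all, and none for Hes1 or Hey1. Of these, 3 held at least 1 of the 4 motifs. Dll3 had an AGNGAAAG match at -95 to -88, and Lfng had TGGGAA matches at -135 to -130 and at -108 to -103. Among 32851 promoter windows of the same length, 21.6% held TGGGAA, 13.7% GCCNNNGGC, 7.3% AGNGAAAG and 13.7% GGTCTC. The median GC content of all windows was 52.4%. These matches describe letters in a window and show no binding.

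Levels below are the deposited log2 signals. A gene was tested if the highest group mean of 1 of its probe sets reached 3.95, the 40th percentile of all values, and it was read at its brightest probe set. This left 14011 genes, and 8 of the 9 Notch genes, all but Lfng. Differences are log2 differences from limma with Benjamini-Hochberg adjustment over all genes tested, and a gene is said to have risen or fallen when its adjusted p was under 0.05 and its log2 difference at least 1 in size. Replicate arrays correlated at 0.966 to 0.976 over all probe sets, and no array stood apart by its median, 4.60 to 4.86. Nothing beyond the word biological in the study's description says how the duplicates were made, so the p values measure the spread between these arrays. The 6 EpiLC markers were all above 3.95 in every group. Their summed level on day 1 was 66.37 to 67.06 in parental aggregates and 66.42 to 67.07 in the Tfap2c line, against 52.61 to 53.05 in the 3-factor line, 60.61 to 61.39 in the Blimp1 line and 59.03 to 59.29 in the Prdm14 line. The early germ cell markers, 6 of 7 on the array and with Prdm1 and Tfap2c among them, went the other way, from 38.8 to 39.37 in parental aggregates to 59.32 to 59.86 in the 3-factor line. They summed to 48.53 to 50.51 in the Blimp1 line, 54.34 to 55.11 in the Prdm14 line and 37.79 to 39.57 in the Tfap2c line. The factors' own genes did not check every label. Tfap2c read 5.80 to 6.08 in the Tfap2c line and 6.29 to 6.38 in parental aggregates, so the arrays do not show that its transgene was active. Day 1 Tfap2c read 11.55 to 11.58 in the 3-factor, 9.38 to 9.81 in the Blimp1 and 10.70 to 10.91 in the Prdm14 line. Prdm1 read 8.63 to 8.71, 6.25 to 6.47 and 7.23 to 7.39 in those lines and 4.90 to 5.01 in parental aggregates. Prdm14 read 3.21 to 3.80 in the Prdm14 line and 3.59 to 3.67 in parental aggregates, both below 3.95 and too low to check the label. The sources used here do not say whether these probe sets read the transgenes. In whole aggregates, fewer cells of a type and less RNA per cell cannot be told apart.

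On day 1 against parental aggregates, Hey1, Notch1 and Jag1 rose in the 3-factor line, Jag1 and Notch1 rose in the Prdm14 line, and in the Blimp1 line Dll1 rose while Jag1 fell. No Notch gene passed the test in the Tfap2c line. This made 3 of 8 genes in the 3-factor line, where 6.62% of all genes tested were called, 2 of 8 in the Blimp1 line against 2.59%, 2 of 8 in the Prdm14 line against 5.37%, and 0 of 8 in the Tfap2c line against 0.0285%. In the Tfap2c line, 1 of the 8 had an unadjusted p under 0.05. The median difference of the 8 genes was -0.20 for the 3-factor line, -0.05 for the Blimp1, 0.005 for the Prdm14 and -0.11 for the Tfap2c line, beside -0.015, 0.025, -0.035 and -0.025 over all genes. All 4 comparisons use the same 2 parental arrays. The members were chosen with earlier results of these data known. Their counts beside the share of all genes, here and below, are therefore a description only.

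**Figure D1:**
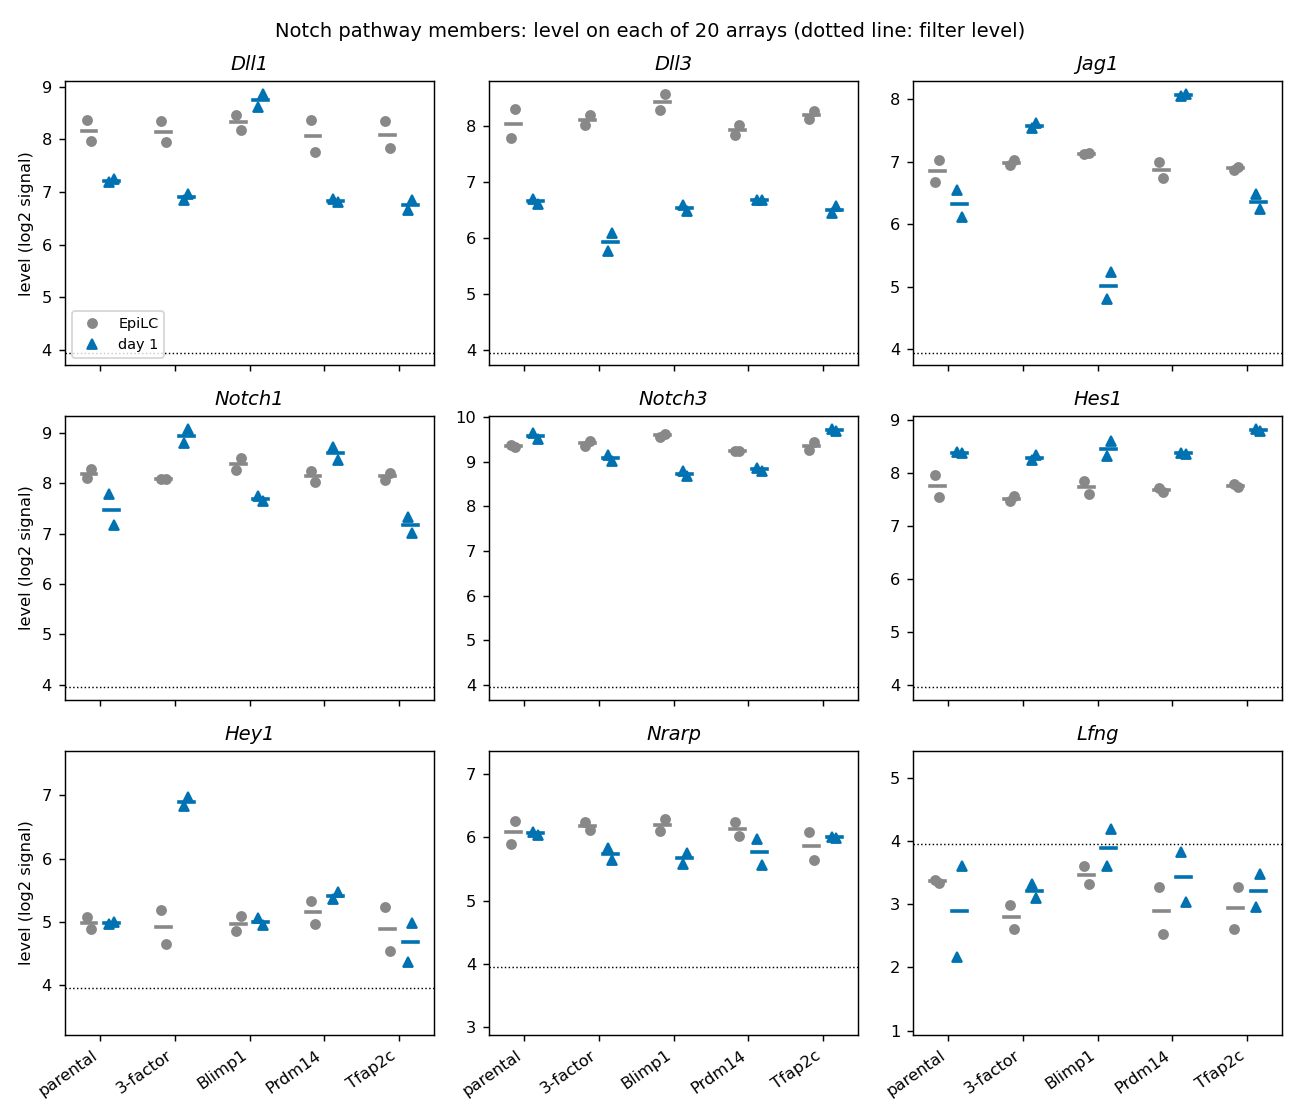
Level of each Notch pathway gene on each of the 20 arrays (log2 signal, at the probe set read), by line, with EpiLCs as grey circles, day 1 aggregates as blue triangles, group means as bars and the filter level of 3.95 as a dotted line. Jag1 spans 4.80 to 8.08 on day 1, Dll1 is high on day 1 in the Blimp1 line, Hey1 in the 3-factor line, and Lfng lies mostly below the filter level.

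Among the ligands, Dll1 was at 7.97 to 8.36 in parental EpiLCs and at 7.18 and 7.25 in parental aggregates. The day 1 levels were 6.85 and 6.97 in the 3-factor line, 8.62 and 8.86 in the Blimp1 line, 6.86 and 6.81 for Prdm14 and 6.66 and 6.84 in the Tfap2c line. Both Blimp1 arrays lay above every other day 1 array, and the 8 other arrays lay within 6.66 to 7.25. Dll1 was higher by 1.53 ± 0.22 (SE, n = 2 per group) in the Blimp1 line than in parental aggregates, with a limma adjusted p of 0.0006892. It was also higher there than in the 3-factor line, by 1.83 with an adjusted p of 6.028e-05, although that line carries a Blimp1 transgene too. Against the Prdm14 and Tfap2c lines the difference was 1.91 and 1.99. Dll1 is a marker of forming mesoderm and of neural progenitors in the embryo. On day 1 the neural list, 6 of 7 on the array, summed to 30.00 to 30.04 in the Blimp1 line and 32.37 to 33.68 in parental aggregates, and the streak and presomitic mesoderm list, 7 of 8 on the array, to 25.32 to 27.05 and 28.49 to 29.5. In the 3-factor line, where Dll1 was at 6.85 and 6.97, the same lists summed to 26.02 to 27.89 and 23.55 to 24.5. In the Blimp1 line 2 of the 5 neural genes tested fell and 0 rose. Of the 6 tested streak and mesoderm genes 0 were called, beside 2.59% of all genes. Within the neural list, Pax6 averaged 5.77 in the Blimp1 line and 5.225 in parental aggregates, Nes 5.37 and 7.87, and Zic1 2.38 and 4.025. Sox1 averaged 5.345 and 5.56, Tubb3 8.17 and 8.105, and Neurog2 2.985 and 2.24. In the streak and mesoderm list, Msgn1 averaged 3.995 and 3.355, Mixl1 2.62 and 4.04, and Eomes 5.585 and 6.345. Tbx6, Mesp1 and Mesp2 averaged 4.165, 4.9 and 4.88 in the Blimp1 line and 4.005, 4.875 and 4.815 in parental aggregates. Averages under 3.95 lie below the filter level. Hes7 was below the filter level in every group. The part of these cells in the Dll1 result was not tested.

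Jag1, the second activating ligand, moved in both directions. It read 6.68 and 7.03 in parental EpiLCs, and 6.55 and 6.11 in parental aggregates. Day 1 aggregates read 7.53 and 7.62 in the 3-factor line, 4.80 and 5.23 in the Blimp1 line, 8.04 and 8.08 in the Prdm14 line and 6.48 and 6.24 in the Tfap2c line. The 3-factor and Prdm14 arrays lay above all parental arrays of that day and the Blimp1 arrays below them, while the Tfap2c arrays lay within the parental range. Against parental aggregates Jag1 rose by 1.25 ± 0.17 in the 3-factor line (limma adjusted p 0.0001482) and by 1.73 ± 0.17 in the Prdm14 line (1.341e-05), and fell by 1.32 ± 0.17 in the Blimp1 line (0.0003055). The Blimp1 and Prdm14 lines differed by 3.05 on the log2 scale, with a limma adjusted p of 1.08e-07. The 3-factor and Prdm14 lines did not pass the test against each other, at 0.49 lower in the 3-factor line with a limma adjusted p of 0.1323. The Tfap2c line lay 1.22 below the 3-factor line, 1.70 below the Prdm14 line and 1.35 above the Blimp1 line, and all of these differences passed. The Jag1 call in the Blimp1 line was lost when the probe sets of the gene were averaged, at -0.82, and when only the 4 arrays compared were fitted, with a limma adjusted p of 0.09465. The averaged difference in the 3-factor line was 0.83, also under the minimum size.

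Dll3, the cell-autonomous inhibitor, was lower on day 1 than in EpiLCs in every line, and lowest on day 1 in the 3-factor line. Its levels were 7.78 to 8.57 on the 10 EpiLC arrays and 5.76 to 6.70 on the 10 day 1 arrays, so the stages did not overlap. In the 3-factor line it read 5.76 and 6.08 on day 1, below the 6.70 and 6.60 of parental aggregates. That difference of -0.73 had a limma adjusted p of 0.004807 but was under the minimum size for a call. Against the Blimp1, Prdm14 and Tfap2c lines the 3-factor line stood at -0.61, -0.755 and -0.58, also under that size. The limma adjusted p values were 0.01355, 0.01575 and 0.01743. Its change from EpiLCs differed from the parental change by -0.79 (limma adjusted p 0.03129), again short of a call. In the Blimp1, Prdm14 and Tfap2c lines Dll3 was at 6.44 to 6.68, and its differences from parental aggregates were at most 0.15 in size.

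Of the receptors, Notch1 read 8.10 and 8.28 in parental EpiLCs and 7.78 and 7.17 in parental aggregates. Notch1 on day 1 was at 8.79 and 9.08 in the 3-factor line and 8.72 and 8.46 in the Prdm14 line, above all other day 1 arrays. It was at 7.75 and 7.64 in the Blimp1 line and at 7.33 and 7.01 in the Tfap2c line. Notch1 rose against parental aggregates by 1.46 ± 0.19 in the 3-factor line (limma adjusted p 9.147e-05) and by 1.12 ± 0.19 in the Prdm14 line (0.0009297). The parental aggregates had the widest gap between replicates of any group for Notch1. Without parental day 1 replicate 2 the Prdm14 difference was 0.81, and without Prdm14 day 1 replicate 1 it was 0.985, both under the minimum size. The call was also lost when only the 4 arrays compared were fitted, with a limma adjusted p of 0.08228. The 3-factor line did not pass the test against the Prdm14 line, with a difference of 0.35 and a 95% interval of -0.07 to 0.76. Notch1 and Jag1 were thus raised in the same pair of lines, and the Blimp1 line, in which Jag1 fell, held Notch1 0.22 above parental aggregates, with a limma adjusted p of 0.4904.

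Notch3, the other receptor, was at 9.23 to 9.63 in EpiLCs. On day 1 it read 9.64 and 9.52 in parental aggregates, 9.16 and 9.01 in the 3-factor line, 8.79 and 8.68 in the Blimp1 line, 8.87 and 8.79 in the Prdm14 line and 9.74 and 9.69 in the Tfap2c line. The 3-factor, Blimp1 and Prdm14 arrays all lay below the parental ones. The differences were -0.50, -0.85 and -0.75 with limma adjusted p values of 0.0005788, 3.26e-05 and 2.848e-05, all short of the minimum size of 1. At the probe sets read, Notch1 was above and Notch3 below parental aggregates in the 3-factor and Prdm14 lines, with adjusted p values under 0.05. A second Notch3 probe set stood at -0.27 in the 3-factor line, with a limma adjusted p of 0.2366.

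**Figure D2:**
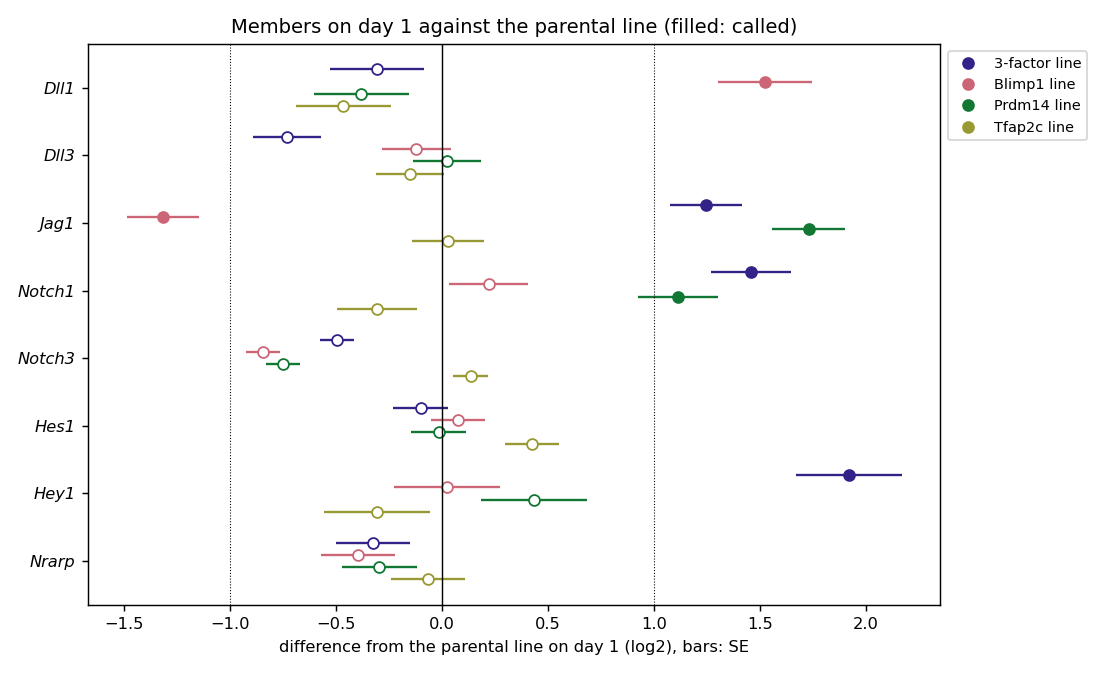
Log2 difference of the 8 tested genes from the parental line on day 1 (horizontal axis, bars show the SE), one point per line, filled where the gene was called, with dotted lines at the minimum size of 1. Jag1 stands at -1.32 in the Blimp1 line and 1.73 in the Prdm14 line, and the 4 points of Hes1 and of Nrarp all lie inside the dotted lines.

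Of the targets, Hey1 was at 4.54 to 5.33 on the 10 EpiLC arrays. On day 1 it read 4.96 and 5.00 in parental aggregates, 6.83 and 6.97 in the 3-factor line, 5.06 and 4.95 in the Blimp1 line, 5.36 and 5.47 in the Prdm14 line and 4.37 and 4.98 in the Tfap2c line. The 3-factor arrays were more than 1 log2 unit above each of the 18 others. Hey1 rose there by 1.92 ± 0.25 against parental aggregates (limma adjusted p 9.648e-05). It was also higher than in each single-factor line, by 1.90 against the Blimp1 line (0.0001125), 1.49 against the Prdm14 line (0.003891) and 2.23 against the Tfap2c line (2.642e-05). The Prdm14 line stood 0.44 above parental aggregates, with a limma adjusted p of 0.2541 and a 95% interval of -0.11 to 0.98.

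Hes1, the other repressor, did not follow Hey1. Its level was 7.48 to 7.97 on the EpiLC arrays and 8.24 to 8.84 on the day 1 arrays, with no overlap between stages. On day 1 it read 8.40 and 8.38 in parental aggregates, 8.24 and 8.34 in the 3-factor line, 8.32 and 8.61 in the Blimp1 line, 8.39 and 8.36 in the Prdm14 line and 8.84 and 8.79 in the Tfap2c line. The 3-factor line differed from parental aggregates by -0.10 with a 95% interval of -0.38 to 0.18, an interval that excludes a change of the size seen for Hey1. The Tfap2c line had the highest Hes1, 0.43 above parental aggregates, with an unadjusted p of 0.006436 and a limma adjusted p of 0.4942.

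Nrarp, the feedback inhibitor, read 5.64 to 6.30 in EpiLCs. Its day 1 levels were 6.09 and 6.04 in parental aggregates, 5.84 and 5.64 in the 3-factor line, 5.58 and 5.76 in the Blimp1 line, 5.98 and 5.56 in the Prdm14 line and 6.01 and 5.99 in the Tfap2c line. All 3 lines with high germ cell markers lay below the parental arrays, by 0.33, 0.40 and 0.30, with limma adjusted p values of 0.2094, 0.1538 and 0.2748, so none passed. Lfng, the glycosyltransferase, was near the floor of the array. Its brighter probe set ranged from 2.17 to 4.19 over all arrays and the other from 0.00 to 2.65, and its highest group mean of 3.895 kept it out of the tests.

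Jag1, Notch1, Notch3 and Nrarp each had more than 1 probe set above the filter level, and these did not all behave alike. A second Jag1 probe set rose by 1.11 in the 3-factor line and 1.71 in the Prdm14 line and fell by 1.15 in the Blimp1 line, all of them called when every probe set was tested. The third stood at 0.13, 0.23 and 0.005 in those lines and was called in none. The second Notch1 probe set rose by 1.40 and 1.10 in the 3-factor and Prdm14 lines, with limma adjusted p values of 0.0002055 and 0.001565. The second Notch3 probe set read -0.92 in the Blimp1 line and -0.51 in the Prdm14 line. The second Nrarp probe set was called in none. Dll1, Dll3, Hes1 and Hey1 were read by a single probe set each, so no second reading exists for them.

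**Figure D3:**
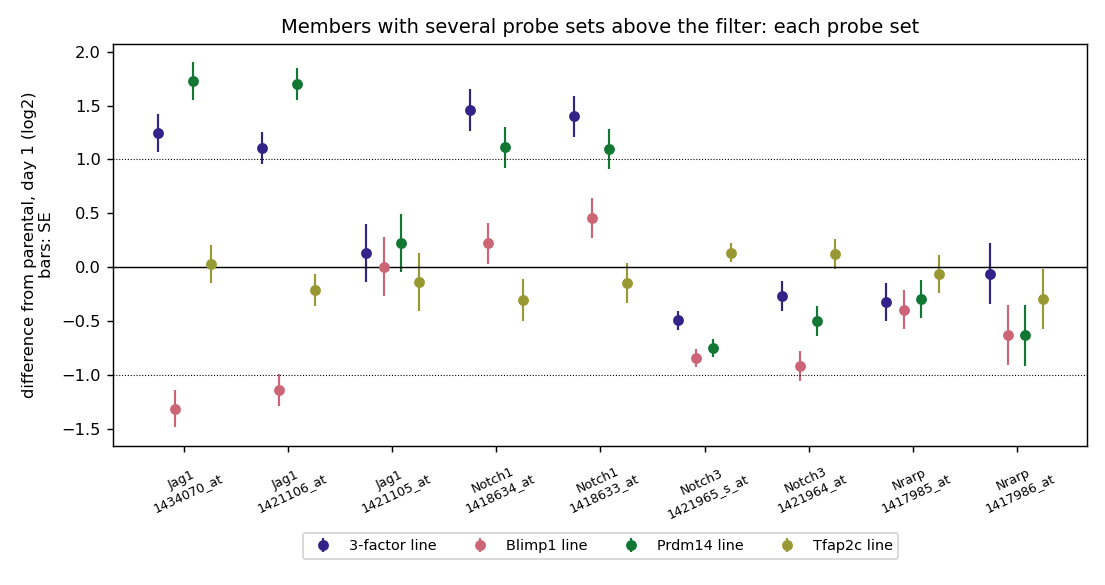
Log2 difference from the parental line on day 1 (vertical axis, bars show the SE) for each probe set above the filter level of Jag1, Notch1, Notch3 and Nrarp, coloured by line. Both Jag1 probe sets at the left place the Prdm14 line near 1.7 and the Blimp1 line below -1, while the third places every line near 0.

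At the EpiLC stage no Notch gene passed the test between a factor line and the parental line. Of the 8 genes, 0 were called in each of the 4 lines against parental EpiLCs, beside 0.0143% of all genes for the 3-factor line, 0.0785% for the Blimp1, 0.0357% for the Prdm14 and 0.0285% for the Tfap2c line. At an unadjusted p under 0.05 there were 2 of 8 in the Blimp1 line and 0 in the others. At the probe sets read, the largest difference of any of these genes was 0.385, and the lowest limma adjusted p was 0.308. Other probe sets differed more. The third Jag1 probe set stood at -0.715, -0.84, -0.84 and -0.815 in the 3-factor, Blimp1, Prdm14 and Tfap2c lines. The second Notch1 probe set stood at -0.525 in the Tfap2c line. None of these was called.

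From EpiLCs to aggregates in the parental line, Dll3 fell by 1.39 ± 0.16 (limma adjusted p 4.243e-05), and it was the only Notch gene of 8 to be called, where 6.57% of all genes were. A further 5 had an adjusted p under 0.05 with smaller changes. Dll1 stood at -0.95 (0.005678), Notch1 at -0.72 (0.01102), Jag1 at -0.53 (0.03198), Notch3 at 0.23 (0.0489) and Hes1 at 0.63 ± 0.13 (0.002423). The second Notch1 probe set fell by 1.24 over the same step and was called, with a limma adjusted p of 0.0004824. The ligands and Notch1 were thus lower in day 1 aggregates without a factor transgene, and Hes1 was higher. The 24 h of aggregation, the GK15 medium and the doxycycline came together, so their effects cannot be told apart. Hey1 and Nrarp were at 0.005 and -0.015. Without parental EpiLC replicate 2 Dll1 stood at -1.145 and was called, as was Notch1 at -1.02 without parental day 1 replicate 1.

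The change from EpiLCs to aggregates was then set against the parental line's own change, which removes the lines' starting levels. Dll1, at 8.47 and 8.17 in Blimp1-line EpiLCs and 8.62 and 8.86 in that line's aggregates, changed differently from the parental line by 1.37 ± 0.32 (limma adjusted p 0.01987). In the 3-factor line 3 of 8 genes differed, where 6.94% of all genes did. They were Jag1 by 1.12 ± 0.24 (0.006198), Notch1 by 1.57 ± 0.27 (0.00133) and Hey1 by 1.98 ± 0.35 (0.001872). In the Blimp1 line 3 of 8 differed beside 2.4% of all genes, namely Dll1, Jag1 by -1.59 (0.002217) and Notch3 by -1.08 ± 0.11 (0.0001928). In the Prdm14 line 2 of 8 differed beside 4.53%, Jag1 by 1.72 (0.0005208) and Notch1 by 1.17 (0.0124). In the Tfap2c line 0 of 8 did, where limma called 0% of all genes, with 652 genes at an unadjusted p under 0.05. Some of these calls were lost when 1 array was left out. Without any one of parental EpiLC replicate 1, parental day 1 replicate 1, Blimp1 EpiLC replicate 2 or Blimp1 day 1 replicate 2, Dll1 had limma adjusted p values of 0.06406 to 0.08222. Jag1 in the 3-factor line was at 0.945 without parental EpiLC replicate 2 and at 0.90 without parental day 1 replicate 2, and Dll3 became a call there, at -1.05, without the former. Notch1 in the Prdm14 line was no longer called without Prdm14 day 1 replicate 1 (1.04), Prdm14 EpiLC replicate 2 (1.06) or parental day 1 replicate 2 (0.865). Jag1 in the Blimp1 line was at -0.75 when its probe sets were averaged. In the fit to the compared arrays alone it had a limma adjusted p of 0.07115. It was called in neither case. In the same kind of fit, Dll1 in the Blimp1 line (limma adjusted p 0.06183) and Notch1 in the Prdm14 line (0.08907) were not called either. The third Jag1 probe set stood at 0.845 in the 3-factor and Blimp1 lines and 1.065 in the Prdm14 line, called in none. Its sign in the Blimp1 line was thus opposite to that of the probe set read.

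Between factor lines on day 1, 6 pairs were compared. The 3-factor and Blimp1 lines differed in 4 of the 8 genes, with Jag1, Notch1 and Hey1 higher and Dll1 lower in the 3-factor line, where 6.46% of all genes were called. The 3-factor and Prdm14 lines differed only in Hey1 among these genes, beside 1.04% of all genes. The 3-factor and Tfap2c lines differed in Jag1, Notch1 and Hey1, beside 7.02%. Jag1 and Dll1 separated the Blimp1 line from the Prdm14 line, beside 6.53%, and from the Tfap2c line, beside 2.74%. Jag1 and Notch1 separated the Prdm14 line from the Tfap2c line, beside 5.82%. These calls are at the probe sets read, and other probe sets did not all match. The second Notch1 probe set stood at 0.945 in the 3-factor line against the Blimp1 line, not called. For the Blimp1 line against the Tfap2c line, the second Jag1 probe set stood at -0.935, not called. The second Notch3 probe set was called there, at -1.045. The third Jag1 probe set was called in none of the 6 pairs. In order of level on day 1, Jag1 ran from the Prdm14 line through the 3-factor line, the Tfap2c line and parental aggregates to the Blimp1 line, and only the first pair of neighbours and the Tfap2c and parental pair did not pass the test. Notch1 ran from the 3-factor line through the Prdm14 line, the Blimp1 line and parental aggregates to the Tfap2c line, and no pair of neighbours in that order was called, the Prdm14 and Blimp1 lines differing by 0.90 with a limma adjusted p of 0.003367.

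The rest of the pathway was read from a list of 51 genes, of which 45 were on the array and 39 were tested. Most of it did not pass. On day 1 in the 3-factor line 1 of 39 rose and 3 fell, in the Prdm14 line 2 rose, and in the Blimp1 and Tfap2c lines 0 were called, with 9 and 1 at an unadjusted p under 0.05. Over all genes tested, 6.62% were called in the 3-factor line, 5.37% in the Prdm14, 2.59% in the Blimp1 and 0.0285% in the Tfap2c line. The Prdm14 count of 2 of 39 is thus near the share of all genes called. The share of all genes at an unadjusted p under 0.05 is not given for these comparisons. Counts of Notch genes at that threshold, here and above, therefore stand without a background and are not read as a result about these genes. For the Blimp1 line on day 1, 2411 of the 14011 genes tested had a limma adjusted p under 0.05. At least as many had an unadjusted p under 0.05. The list's median difference was -0.175 for the 3-factor line, 0.04 for the Blimp1, -0.14 for the Prdm14 and 0.015 for the Tfap2c line.

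Of the genes that act on ligands, Mib2, a ubiquitin ligase that helps ligands into endocytosis, read 5.43 and 5.94 in parental aggregates. It was at 6.99 to 7.03 in the 3-factor line and 6.66 to 6.75 in the Prdm14 line, against 5.36 to 5.39 in the Blimp1 line and 5.49 to 5.74 in the Tfap2c line. It rose by 1.33 ± 0.14 in the 3-factor line (limma adjusted p 1.847e-05) and by 1.02 ± 0.14 in the Prdm14 line (0.000203), the same lines in which Jag1 and Notch1 rose. Dner, a non-canonical ligand best known from neurons, rose by 1.10 ± 0.31 in the Prdm14 line (0.02073), from 4.28 to 4.44 in parental aggregates to 5.42 to 5.49. Among receptors, Notch4, known from endothelium, fell by 1.28 in the 3-factor line (0.001563). Its other probe sets read -1.45 and 0.435 there and neither was called, so the Notch4 probe sets disagree. The endothelial list, 5 of 5 on the array, summed to 24.13 to 24.6 in the 3-factor line and 24.25 to 24.48 in the Prdm14 line. In parental aggregates it summed to 20.82 to 21.2. The list had 2 of its 5 genes rise in the 3-factor line and 1 in the Prdm14 line, beside 6.62% and 5.37% of all genes called. Its part in these results was not tested. Of its 5 genes, Pecam1 averaged 3.695 in parental aggregates, 5.28 in the 3-factor line and 5.125 in the Prdm14 line, and Tek 4.635, 5.74 and 5.605. Cdh5 averaged 3.585, 3.745 and 3.42, Kdr 3.41, 3.875 and 4.17, and Esam 5.685, 5.725 and 6.045. Notch2 stood 0.62, 0.845 and 0.655 above parental aggregates in the 3-factor, Blimp1 and Prdm14 lines, short of a call in each.

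In the nucleus, Rbpj, the DNA-binding partner of all Notch receptors, was tested at its brightest probe set. It read 8.88 on both parental arrays of day 1, 9.80 to 9.87 in the 3-factor line and 9.77 to 9.90 in the Prdm14 line. The difference was 0.955 in each, just under the minimum size. At another Rbpj probe set it was 1.29 in the 3-factor line (limma adjusted p 4.332e-07) and 1.175 in the Prdm14 line (1.394e-06), both called when every probe set was tested. The remaining Rbpj probe set read 0.67 and 0.71 and was called in neither. The Rbpj change from EpiLCs exceeded the parental change by 1.195 in the 3-factor line (0.0001525). At the remaining probe set this excess was 0.83, not called, with a limma adjusted p of 0.07957. Dtx2, a Deltex ubiquitin ligase, fell by 1.03 in the 3-factor line (1.151e-05), from 7.83 to 7.93 in parental aggregates to 6.81 to 6.89, and stood at -0.94, not called, at a second probe set. Hes6, a relative of Hes1 that opposes it in neural cells, fell by 1.04 (1.208e-05), from 9.87 to 9.94 down to 8.84 to 8.90, in the same line, and stood at -0.86, not called, at a second probe set. Between factor lines, Dtx4, another Deltex ligase, was higher in the Blimp1 line than in the 3-factor line by 1.28 and than in the Prdm14 line by 1.165. Hey2, a relative of Hey1, was 1.78 higher in the Blimp1 line than in the Prdm14 line (limma adjusted p 0.04423). It read 3.93 to 4.18 and 2.04 to 2.51 there, around and below the filter level. In the parental line alone, Pofut1, which puts the first sugar on the receptors, rose from EpiLCs to aggregates by 1.495. Maml1, a coactivator of the RBPJ complex, rose by 1.14 and Notch4 by 1.365. Thus 3 of 39 rose and 0 fell, near the share of all genes called in that step, 6.57%. Another Notch4 probe set fell by 1.115 over that step, the 2 further Pofut1 probe sets stood at 0.06 and 0.09, and a second Maml1 probe set at 0.55.

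**Figure D4:**
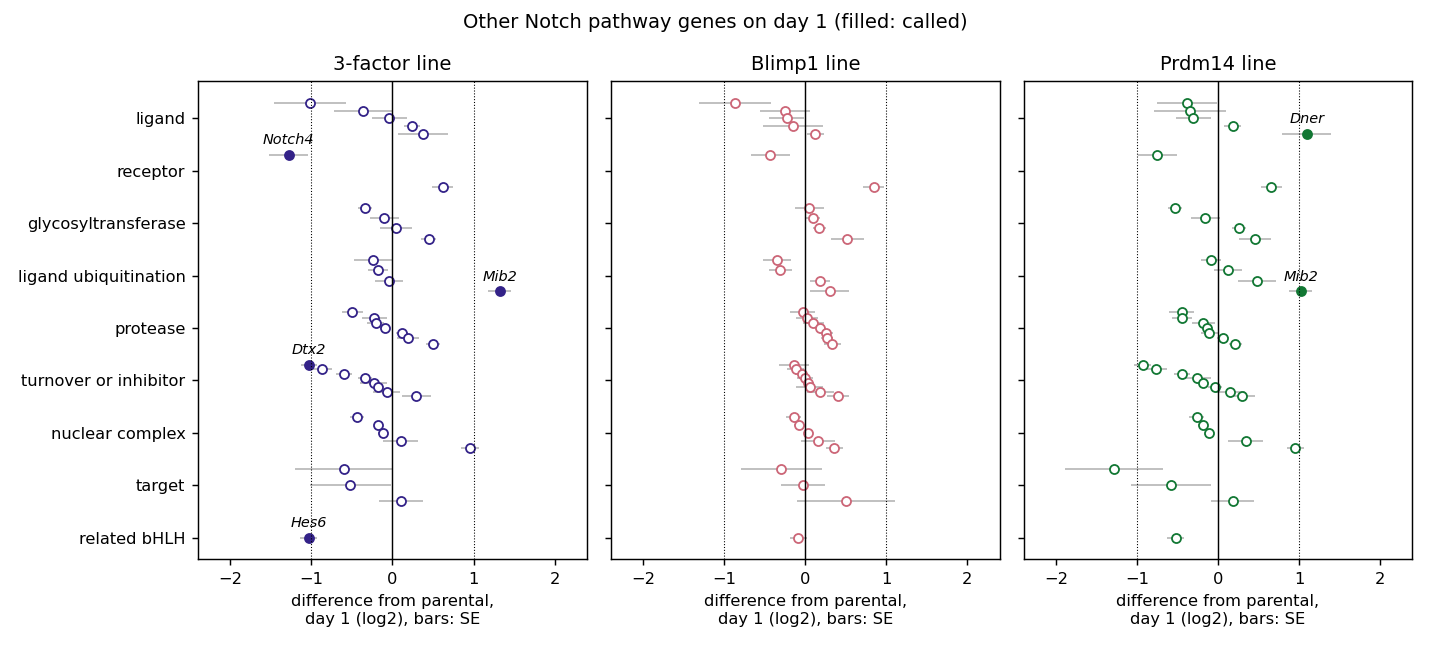
Log2 difference from the parental line on day 1 (horizontal axis, bars show the SE) of the 39 other tested genes of the pathway, grouped by role, in the 3-factor, Blimp1 and Prdm14 lines, with called genes filled and named and dotted lines at the minimum size of 1. In the 3-factor line 4 genes are filled and in the Prdm14 line 2, and Mib2 is the one named in both.

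The members' patterns over the 10 group means were compared with each other and with all tested genes by Pearson's r, as a description over points that share arrays and stages. Among the Notch genes, the highest values were 0.76 for Notch3 with Nrarp, 0.73 for Jag1 with Notch1 and 0.72 for Notch1 with Hey1, and the lowest was -0.88 for Dll3 with Hes1. Hey1 and Hes1 were not among the like pairs. The genes most like each member were Cdk5r1, Bmi1 and Pcmt1 for Dll1 (0.986, 0.985 and 0.971), Neurod1, Artn and Pitpnb for Dll3 (0.989, 0.987 and 0.987), and Polr1c, Rrn3 and Nfib for Jag1 (0.985, 0.979 and 0.971). They were Bcap29, Klf5 and Stoml1 for Notch1 (0.985, 0.98 and 0.973) and Shisa3, Usp15 and Radil for Notch3 (0.988, 0.954 and 0.954). For Hes1 they were Zyg11b, Gramd4 and Opn3 (0.976, 0.97 and 0.965), for Hey1 Slc25a39, B4galt5 and Zfp862-ps (0.974, 0.959 and 0.959), and for Nrarp Zfp874a, Ap3s2 and Fbxl6 (0.971, 0.935 and 0.933).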

How the data were processed

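RNA was measured on 20 Affymetrix arrays, from total RNA purified on columns and labelled as biotin cRNA by the one-cycle protocol, per the labels. The authors deposited log2 values, 1 per probe set and array. The base was inferred here from their range of 0 to 13.83, and the normalization, probe summary and software were not given in the sources used here. The number of arrays limits the precision.

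Probe sets were named from the platform annotation (34945 with 1 gene, 932 with several, 9160 with none listed) and 64 control probe sets were left out. With a filter at the 40th percentile of all values, 3.95, 30351 probe sets remained, and the brightest of each gene was kept. One limma 3.58.1 model of 10 group means (R 4.3.3, 10 residual and 1.79 prior degrees of freedom) was fitted, with two-sided p values adjusted by Benjamini-Hochberg over all 14011 genes. The script was tested on simulated data. Promoters and figures used Python 3.11.15. Named genes are the 9 members, the other pathway genes called in a comparison, and the 3 genes most correlated with each member. Members and lists were chosen with earlier results of these data known. The reference table (GRCm38.p6) gave names, chromosomes and promoters. The alternatives were other filters, probe set rules, scalings, call rules, variance priors, a replicate block, fits to the compared arrays alone and each replicate left out.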

Additional observations from a re-analysis of the deposited data

Results flagged for a closer look

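The change from EpiLCs to day 1 aggregates differed between a factor line and the parental line in 8 cases among the Notch genes, by the test of the difference of changes in limma with Benjamini-Hochberg adjustment over all genes. Values are log2 differences of changes, factor line minus parental. In the 3-factor line, Hey1 differed by 1.975 (adjusted p 0.001872), Notch1 by 1.565 (0.00133) and Jag1 by 1.12 (0.006198). In the Blimp1 line, Jag1 differed by -1.585 (0.002217), Dll1 by 1.37 (0.01987) and Notch3 by -1.08 (0.0001928). In the Prdm14 line, Jag1 differed by 1.715 (0.0005208) and Notch1 by 1.17 (0.0124). All use the same 4 parental arrays. With 2 arrays in a group, no test for an outlying array within a group was run.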

How the results depend on the processing

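No member difference that was called in any fit reversed its sign under an alternative. The alternatives read a gene at its brightest probe set or at the average of its probe sets. The third Jag1 probe set was not read alone there. In the Blimp1 change from EpiLCs it stood at 0.845, opposite in sign to the -1.585 reported, and was not called. On day 1 itself it stood at 0.005 in that line against parental aggregates. Of the 8 tested genes, the number called in the parental change from EpiLCs was 1, and became 2 after quantile normalization (Dll1 added, at -1.02), 6 with no minimum size, and 1 to 2 with a replicate left out (Notch1 added without parental day 1 replicate 1, Dll1 without parental EpiLC replicate 2). Dropping the minimum size raised the 3-factor count on day 1 and in the change from EpiLCs from 3 to 5. On day 1 the Blimp1 count fell from 2 to 1 when a gene's probe sets were averaged (Jag1 -0.82) and when the fit held only the arrays compared (Jag1 adjusted p 0.09465 by limma). The Prdm14 count of 2, on day 1 and in the change from EpiLCs, fell to 1 by losing Notch1 when limma's treat tested against a change of 0.5 (adjusted p 0.06847 on day 1), with only the arrays compared (0.08228), and without parental day 1 replicate 2 or Prdm14 day 1 replicate 1 (in the change from EpiLCs also without Prdm14 EpiLC replicate 2); with a replicate left out the range was thus 1 to 2. With no minimum size both Prdm14 counts and the Blimp1 count on day 1 were 3, Notch3 being added. Averaging probe sets put Jag1 at -0.75 in the Blimp1 change from EpiLCs, not called. Dll1 in the Blimp1 change was not called by treat (limma adjusted p 0.4284) or with only the arrays compared (0.06183). Jag1 in the 3-factor change from EpiLCs was not called by treat (limma adjusted p 0.1833). The Blimp1 count in the change from EpiLCs fell from 3 to 1 with only the arrays compared and was 2 to 3 with a replicate left out; its Dll1 difference was lost by limma's test in 4 of the 8 fits with an array left out, its adjusted p being 0.06406 to 0.08222 without parental EpiLC replicate 1, parental day 1 replicate 1, Blimp1 EpiLC replicate 2 or Blimp1 day 1 replicate 2. The 3-factor Jag1 difference in that change was 0.945 without parental EpiLC replicate 2 and 0.90 without parental day 1 replicate 2, and the count there was 2 to 3. The Tfap2c and EpiLC counts of Notch genes stayed 0 under every alternative run. With no minimum size, limma called 4837 of all genes in the parental change and 3846, 2411 and 3347 on day 1 in the 3-factor, Blimp1 and Prdm14 lines, against 921, 928, 363 and 753. With every probe set tested these counts were 1694, 1601, 597 and 1285. For the Blimp1 line on day 1 the count was 233 by treat and 142 with only the arrays compared. For the change from EpiLCs in those lines, limma called 972, 336 and 635 genes, and 2616, 1213 and 1698 with no minimum size; it called 1522 and 976 probe sets in the 3-factor and Prdm14 lines, 114 and 394 genes by treat in the Blimp1 and Prdm14 lines, and 173 in the Blimp1 line with only the arrays compared. In the EpiLC and Tfap2c comparisons, with 0 to 11 genes called, the alternatives gave 0 to 33. Over all genes, the correlation between groups of the replicate 1 minus replicate 2 difference ran from -0.0653 to 0.195 over 45 pairs of groups, with 6 over 0.1, so the numbers were not taken to pair the samples, although single genes could share a direction (Dll1 was higher in replicate 1, and Dll3 lower, in all 5 EpiLC groups). A replicate block left the member counts at 1, 3, 2 and 2 and changed no Notch call. Where an array was left out, the lone array was assumed to vary like the other groups. The cause of these shifts was not tested beyond what each alternative's construction shows. Signal near the floor limits Lfng, and 2 arrays a group limit every value.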
